A study of Mus musculus with 12 samples.

Results

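Keratins of the epidermis were followed through hind paw tissue and whole dorsal root ganglion (DRG) of female and male mice. The 10 genes, Krt1, Krt2, Krt5, Krt6a, Krt9, Krt10, Krt14, Krt16, Krt17 and Krt77, were chosen by symbol as the basal, suprabasal, volar and stress keratins of skin, leaving out those of hair, and all 10 were among the 22609 gene symbols of the count tables. The mice were of strain C57BL/6J, and the labels give an age of 8 to 14 weeks and 20 µl of saline injected into the paw for every library of both tissues, so there is no uninjected group. Each tissue and sex had 3 RNA-seq libraries, 12 in all. The methods of the study describe naïve mice in a narrower range of ages, with the females in estrus, and a punch biopsy of the paw that took epidermis, dermis and some of the fat beneath, and DRG from several lumbar levels. The series design names 3 males and 3 females, but the labels tie no library to a mouse, so p-values here measure the spread between these libraries, which may be technical.

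Keratins are the intermediate filament proteins of epithelial cells, and each filament is built from pairs of 1 type I and 1 type II chain. Basal keratinocytes make Krt5 with Krt14, and cells that leave the basal layer switch to Krt1 with Krt10, joined by Krt2 in the upper layers. Krt9 is added in the thick skin of palms, soles and footpads, and Krt6a, Krt16 and Krt17 are low in most resting epidermis but are made in footpad, in skin appendages and after injury.

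The number of reads on genes ran from 6866545 to 13470783 per library. Male hind paw library 2 stood apart. It had the fewest reads on genes, with 13.6% of its listed reads on genes and 55.5% without a unique alignment, whereas in the other 5 hind paw libraries 23.8% to 25.4% were on genes and 42.1% to 43.2% had no unique alignment. A floor of 3 reads corresponds to 2.23e-05% to 4.37e-05% of a library and covers counting error only. The tissue labels were checked with marker genes. A list of 13 sensory neuron genes took 0.647% of the reads on genes in DRG on average and 0.00135% in the hind paw.

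The genes lie in the 2 keratin clusters of the mouse genome. On chromosome 11 of mm9 are 5 of them, the type I genes Krt10 (99246568 to 99250678), Krt9 (100048095 to 100054560), Krt14 (100064476 to 100068862), Krt16 (100107405 to 100110276) and Krt17 (100117531 to 100122343). On chromosome 15 are the 5 type II genes Krt6a (101520363 to 101524738), Krt5 (101537501 to 101543322), Krt2 (101641120 to 101648600), Krt1 (101675859 to 101681217) and Krt77 (101689163 to 101700136). All 10 are annotated on the minus strand. Krt1 and Krt77 are separated by 7.95 kb, and Krt16 and Krt17 by 7.25 kb.

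Promoter sequences are shown for genes at both ends of the range of levels. RefSeq promoter windows (GRCm38.p6) matched 6 of the 10 genes, Krt2, Krt5, Krt9, Krt10, Krt14 and Krt77, and not Krt1, Krt6a, Krt16 and Krt17. The 250 bases before the start site are printed for Krt10 and Krt2, the most abundant genes, for the volar gene Krt9 and for Krt77, the least abundant. Each window was found once in mm9, for Krt10 at chr11:99250679-99250928, for Krt2 at chr15:101648601-101648850, for Krt9 at chr11:100054561-100054810 and for Krt77 at chr15:101700137-101700386, all on the minus strand and upstream of the first annotated exon. Capitals mark the motifs found.
Krt10: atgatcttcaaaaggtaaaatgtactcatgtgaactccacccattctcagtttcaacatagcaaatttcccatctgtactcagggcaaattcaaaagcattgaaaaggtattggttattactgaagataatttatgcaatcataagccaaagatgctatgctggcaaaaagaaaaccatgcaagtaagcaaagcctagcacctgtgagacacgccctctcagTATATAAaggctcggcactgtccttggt
Krt2: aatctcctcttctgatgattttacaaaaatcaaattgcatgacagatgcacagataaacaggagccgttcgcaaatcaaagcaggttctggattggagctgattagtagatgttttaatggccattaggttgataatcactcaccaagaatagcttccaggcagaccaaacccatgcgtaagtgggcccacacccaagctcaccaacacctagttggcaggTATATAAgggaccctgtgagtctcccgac
Krt9: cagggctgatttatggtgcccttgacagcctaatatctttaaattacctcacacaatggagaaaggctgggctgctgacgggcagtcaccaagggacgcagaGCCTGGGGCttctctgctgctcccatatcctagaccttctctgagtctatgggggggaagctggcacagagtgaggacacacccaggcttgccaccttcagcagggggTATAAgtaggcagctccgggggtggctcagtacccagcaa
Krt77: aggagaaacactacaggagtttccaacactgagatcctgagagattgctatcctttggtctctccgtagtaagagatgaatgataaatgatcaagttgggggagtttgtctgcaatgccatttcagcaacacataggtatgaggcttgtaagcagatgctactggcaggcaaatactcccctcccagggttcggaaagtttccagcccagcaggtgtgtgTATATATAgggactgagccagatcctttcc
The motifs searched were TATAA and TATATA, letters of the TATA box that can overlap each other, on the gene's strand in the last 50 bases, and TGANTCA (the AP-1 motif) and GCCNNNGGC (the AP-2 motif) on both strands of the 250 bases. The TATA letters were chosen after the sequences were seen. TATAA was found in 3 of the 6 genes (Krt10, Krt2 and Krt9) and in 4.93% of 32851 promoter windows of the same length, and TATATA in 3 of the 6 (Krt10, Krt2 and Krt77) and in 1.35% of all windows. GCCNNNGGC was found in Krt9 and in 13.7% of all windows, while TGANTCA was found in 0 of the 6 genes and in 6.75% of all windows. The start site of the Krt14 window lies 1518 bases inside the mm9 gene, and that window is not printed for this reason. A match is a match of letters and says nothing of the binding of a factor.

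Levels were compared between genes per length, as RPKM. Reads on a gene were divided by the library's RLE factor, which gives the normalized count. That count was divided by the length of the exons and by the geometric mean depth of the tissue's libraries. Krt10, the type I keratin of suprabasal cells, had the highest level, with a mean RPKM of 11576 ± 1861 (SD, n = 6) over the hind paw libraries. Krt2 followed with 7902 ± 592 and Krt1 with 4275 ± 1589, and these 3 genes ranked 1, 2 and 3 among all 21671 genes with a known length. The 3 suprabasal genes kept this order in 6 of 6 libraries. After this scaling their ranges did not overlap, although the lowest Krt10 (8787) was close to the highest Krt2 (8689). The ranges were not compared with each library's own depth as the scale.

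The basal genes Krt14 (1071 ± 95.5) and Krt5 (903 ± 75.6) came next in RPKM, with Krt9 (892 ± 272) beside them. Krt14 was above Krt5 in 6 of 6 libraries although their ranges over the libraries overlapped. Krt5 and Krt9 did not differ beyond their spread, and each was the higher in 3 of the 6 libraries. The stress genes formed a lower tier of nearly equal levels, with a mean RPKM of 103 ± 22.9 for Krt16, 101 ± 15.2 for Krt6a and 93.8 ± 20.9 for Krt17. Their ranges overlapped one another, and none of them reached the range of Krt9. Krt77, a type II relative of Krt1, was near the limit of detection, with an RPKM of 0.417 ± 0.398 and 63 reads in the 3 female libraries and 19 in the 3 male ones.

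**Figure D1:**
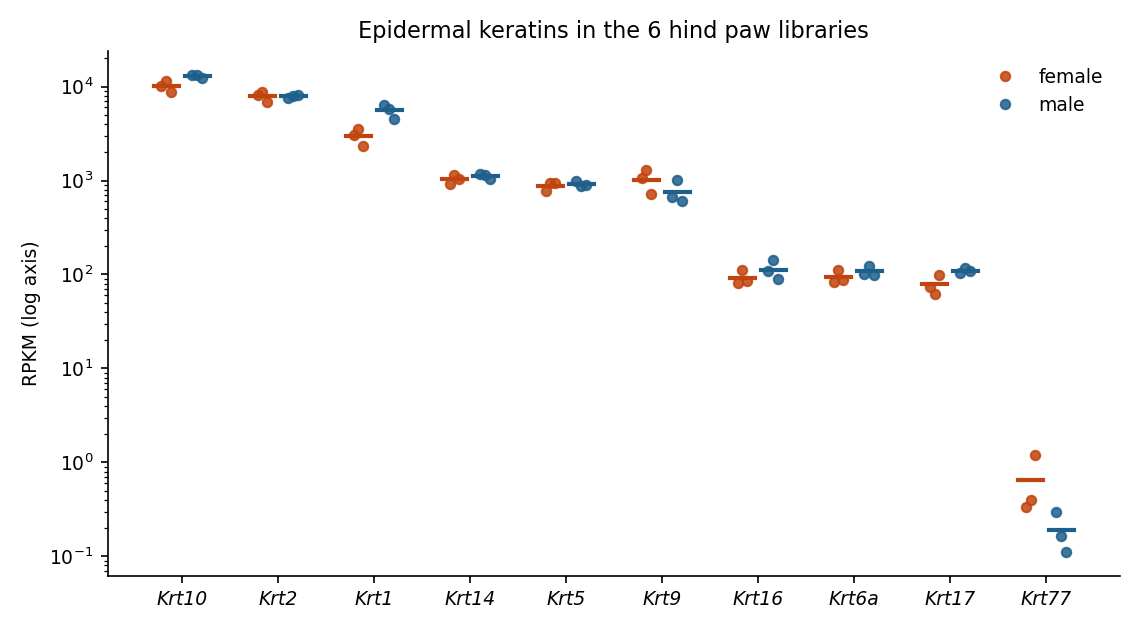
RPKM (log axis) of the 10 epidermal keratins in each hind paw library, with a point per library and a bar at the mean of the 3 female (red) and 3 male (blue) libraries. Krt10, Krt2 and Krt1 lie above all other members in every library, and Krt77 lies far below them at a mean of 0.417.

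Read sharing between relatives limits these levels for 1 gene above all. Reads that aligned to more than 1 place were not counted on genes, and 32.1% of the 100-base windows of the Krt6a transcript occur exactly in protein-coding transcripts of another gene, 643 of the 693 in Krt6b. Krt6a is therefore uncertain as a level. The shares were 3.01% for Krt16, 2.88% for Krt14 and 2.39% for Krt5, and 0 windows of the other 6 genes were shared. In 50-base windows the shares were 49.0% for Krt6a, 14.4% for Krt14, 11.9% for Krt16, 8.55% for Krt5 and 3.99% for Krt17. Krt1, Krt2, Krt9, Krt10 and Krt77 had 0 shared windows at either length.

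The spread between libraries differed among genes. In these normalized values Krt2 varied least, with a coefficient of variation of 7.50% over the 6 hind paw libraries. Krt5 (8.37%) and Krt14 (8.92%) were close to it, and their order was read under this scaling only. Krt1 (37.2%) and Krt9 (30.5%) varied most among the genes above the level of Krt77 (95.3%). These values are over both sexes, whose means of Krt1 lie apart. Within a sex, Krt1 varied by 19.6% in females and 16.9% in males, less than Krt9 (28.4% and 28.8%).

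Together the 10 keratins took 5.80%, 6.65% and 4.91% of the reads on genes in female hind paw libraries 1, 2 and 3, and 7.10%, 6.44% and 6.27% in male libraries 1, 2 and 3. The sexes overlapped, since female library 2 was above 2 of the male libraries. The mean was 5.78% ± 0.870 in females and 6.61% ± 0.440 in males (SD, n = 3; exact permutation test, 2-sided p = 0.3, where the smallest p that 3 libraries against 3 can give is 0.1). The difference of -0.82 percentage points was -0.38 without female library 3 and -1.25 without female library 2. As a percent of all listed reads, those not on genes included, the means were 1.40% in females and 1.42% in males, a difference of -0.012 (exact permutation test, 2-sided p = 0.9). The SD was 0.189 in females and 0.476 in males. Male library 2, with few of its reads on genes, was at 0.876%, against 1.78% and 1.59% in male libraries 1 and 3. The small size of this difference depends on that library. In bulk tissue such as this, fewer cells of a type and less RNA per cell cannot be told apart. Krt10, Krt2 and Krt1 made up 87.2% to 90.8% of the keratin reads in each hind paw library.

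Whether the keratins differ between the sexes in the hind paw was tested over all 14316 genes that passed the filter on low counts, which all 10 keratins did. At an adjusted p-value under 0.05, 0 of the 10 were called by edgeR (quasi-likelihood test, Benjamini-Hochberg adjustment), where 0.154% of all genes tested were called. DESeq2 called 1 of the 10, Krt1, and 1.45% of all genes. At an unadjusted p under 0.05 there were 4 of 10 (Krt1, Krt10, Krt17 and Krt77), against 9.74% of all genes. Every male library was above every female library in 3 of 10 (Krt1, Krt10 and Krt17), against 7.85% of all genes, and every female library was above every male library in 1 of 10 (Krt77), against 7.68%. Krt77 passed the filter through the female libraries, where it is higher, with 11, 14 and 38 reads. The male libraries had 12, 3 and 4. Its place in these counts is therefore a description only. The log2 fold change, female minus male, was below 0 in 8 of 10 and had a median of -0.16, beside -0.0057 for all genes tested. Leaving out single libraries moved the keratins' median between -0.27 (without female library 2) and -0.084 (without female library 1). The signs of Krt2 and Krt5 turned when single libraries were left out.

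**Figure D2:**
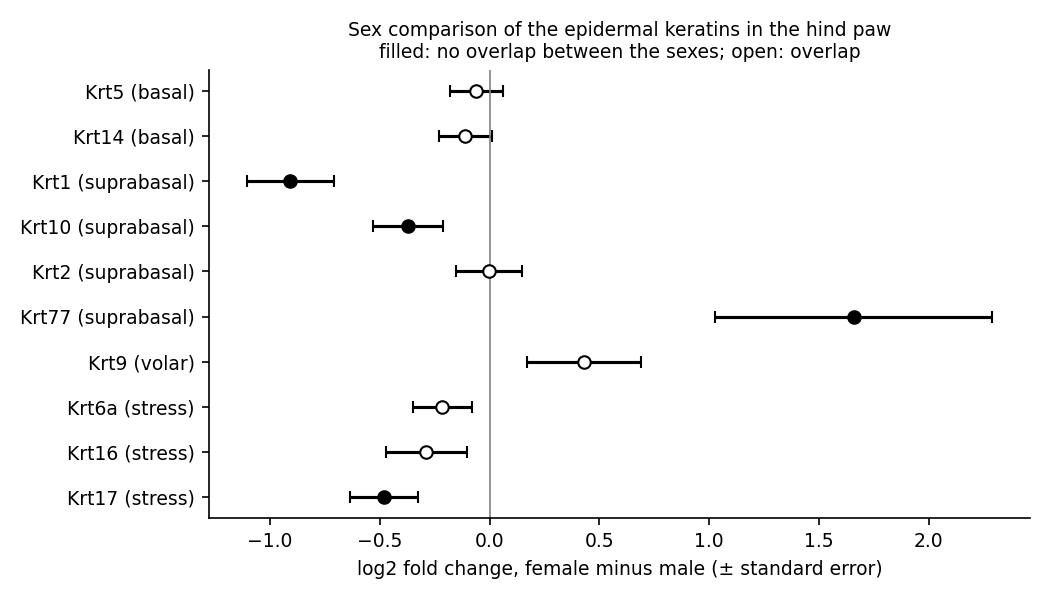
Log2 fold change of each keratin in the hind paw, female minus male, with its standard error, grouped by role. Krt1 at -0.91 and Krt77 at 1.66 are the farthest from 0, and filled points are the 4 genes in which the libraries of the sexes do not overlap.

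Among the basal genes, Krt5, the type II chain of the basal layer, had 18009, 22249 and 22170 normalized counts in female libraries 1, 2 and 3 and 23032, 20716 and 21337 in male libraries 1, 2 and 3. Its partner Krt14 had 17276, 21639 and 19443 in females and 21909, 21533 and 19575 in males. Female library 1 was the lowest in both genes, and the sexes overlapped in both. The log2 fold changes were -0.06 (standard error 0.12) for Krt5 and -0.11 (standard error 0.12) for Krt14, with adjusted p-values of 0.936 and 0.851 from edgeR's quasi-likelihood test. That of Krt14 was -0.03 without female library 1 and -0.19 without female library 2. Within a library, the RPKM of Krt14 over that of Krt5 stayed between 1.09 and 1.29.

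Krt1, the type II keratin of suprabasal cells, had 79856, 92524 and 62006 normalized counts in female libraries 1, 2 and 3 and 168298, 151795 and 119504 in male libraries 1, 2 and 3. All male libraries were above all female libraries, and the lowest male value, that of library 3, was nearer to the highest female value than to the highest male one. The mean was 78129 ± 15332 in females and 146532 ± 24819 in males (SD, n = 3), 1.88-fold higher in males. Its log2 fold change of -0.91 had a standard error of 0.20 and an adjusted p of 0.184 in edgeR's quasi-likelihood test (Benjamini-Hochberg). This call depended on the test. The adjusted p was 2.55e-06 with DESeq2, and it was 0.00314 when the level of skeletal muscle markers entered edgeR's fit as a covariate, in a range of 2.55e-06 to 0.404 over 13 alternatives. Leaving out single libraries moved the log2 fold change between -1.04 and -0.77, with -0.88 without male library 2.

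Krt10, the type I partner of Krt1, had 226753, 256793 and 197741 normalized counts in female libraries 1, 2 and 3 and 300983, 301737 and 278990 in male libraries 1, 2 and 3. The sexes did not overlap, and the female libraries were spread more widely than the male ones. Males were 1.29-fold higher, a log2 fold change of -0.37 (standard error 0.16, adjusted p = 0.504 by edgeR's quasi-likelihood test). The adjusted p of Krt10 was 0.0539 with DESeq2, and 0.0798 in edgeR's fit with skeletal muscle markers as a covariate. Over 13 alternatives it ran from 0.0539 to 0.783, so Krt10 was called in none of them.

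Krt2, the type II keratin of the upper suprabasal layers, had 227001, 244006 and 193979 normalized counts in female libraries 1, 2 and 3 and 214434, 225597 and 226289 in male libraries 1, 2 and 3. Both the highest and the lowest library were female, so the male range lay inside the female one. The means were 221662 ± 25437 and 222107 ± 6654 (SD, n = 3), and the log2 fold change of -0.0029 was small beside its standard error of 0.15.

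Krt77 was scarce. It had 10.4, 12.5 and 37.7 normalized counts in female libraries 1, 2 and 3 and 9.44, 5.13 and 3.52 in male libraries 1, 2 and 3. The sexes did not overlap, but female library 3 alone was far above the rest, and female library 1 was close to male library 1. On the log2 scale the difference was 1.66 (standard error 0.63, adjusted p = 0.435 by edgeR's quasi-likelihood test), and leaving out single libraries gave 0.86 (without female library 3) to 2.25.

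Ratios within a library were also compared, which do not depend on the scaling between libraries. The RPKM of Krt2 was 2.66, 2.47 and 2.93 times that of Krt1 in female libraries 1, 2 and 3 and 1.19, 1.39 and 1.77 times in male libraries 1, 2 and 3. For Krt10 over Krt1 the ratios were 3.32, 3.24 and 3.72 in females and 2.09, 2.32 and 2.73 in males. In both ratios every female library was above every male library. Krt9 over Krt1 was 0.351, 0.366 and 0.302 in females and 0.104, 0.175 and 0.133 in males, a 2.52-fold difference between the sexes and the widest of the 8 ratios tested. It too was without overlap.

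The ratio of Krt1 to Krt5, suprabasal over basal, was 1.80-fold higher in males, and that of Krt10 to Krt14 was 1.20-fold higher in males, again without overlap between the sexes. The log2 difference in Krt10 to Krt14, -0.26, was -0.17 without female library 3. In the ratios of Krt14 to Krt5, Krt16 to Krt6a and Krt17 to Krt6a the sexes overlapped. The 5 ratios without overlap each had p = 0.1 in the exact permutation test (2-sided, the smallest p possible) and 0.16 after Benjamini-Hochberg adjustment over the 8 ratios, so none of them passed the threshold. Of those 5, 4 contain Krt1 and are not independent of one another.

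**Figure D3:**
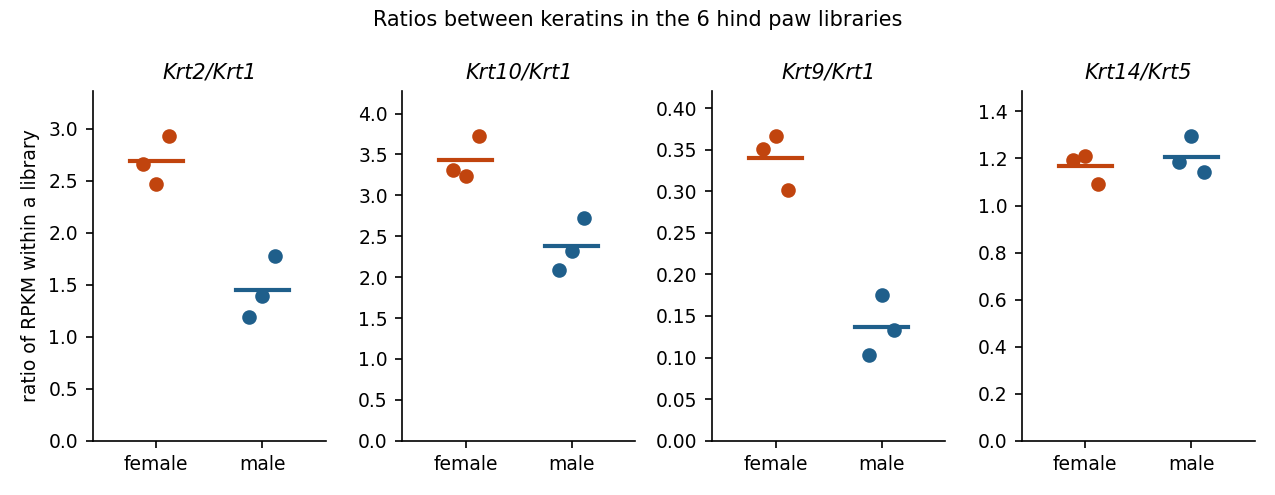
Ratio of RPKM within each hind paw library, with a point per library and a bar at the mean of each sex. The female libraries lie above the male ones in Krt2/Krt1 (2.47 and above, against 1.77 and below), Krt10/Krt1 and Krt9/Krt1, and the sexes overlap in Krt14/Krt5.

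Krt9, the type I keratin of volar skin, had 29600, 35746 and 19758 normalized counts in female libraries 1, 2 and 3 and 18396, 28024 and 16793 in male libraries 1, 2 and 3. Male library 2 lay among the females and female library 3 among the males. Females and males differed by 0.43 on the log2 scale (standard error 0.26, adjusted p = 0.670 by edgeR's quasi-likelihood test), by 0.23 without female library 2, and by 0.69 without male library 2, the library that stood apart in its share of reads on genes.

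Of the stress genes, Krt17, a type I keratin of appendages and injured epidermis, had 1260, 1058 and 1661 normalized counts in female libraries 1, 2 and 3 and 1745, 1974 and 1836 in male libraries 1, 2 and 3. The sexes did not overlap, though female library 3 came close to the lowest male library. Males were 1.40-fold higher, with a log2 fold change of -0.48 (standard error 0.15, adjusted p = 0.356 by edgeR's quasi-likelihood test). With skeletal muscle markers as a covariate the adjusted p of Krt17 in edgeR's fit was 0.0480, in a range of 0.0480 to 0.717 over 13 alternatives.

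Krt16, a type I keratin of injured and pressure-bearing epidermis, had 1412, 1947 and 1482 normalized counts in female libraries 1, 2 and 3 and 1885, 2480 and 1555 in male libraries 1, 2 and 3. Krt6a, its type II partner, had 2016, 2689 and 2093 in females and 2478, 3002 and 2414 in males. Both genes were highest in male library 2, and the sexes overlapped in both. The log2 fold changes were -0.29 (standard error 0.19) for Krt16 and -0.21 (standard error 0.14) for Krt6a, with adjusted p-values of 0.691 and 0.687 from edgeR's quasi-likelihood test. Without male library 2, the library that stood apart, they were -0.09 and -0.11, and without female library 2 they were -0.44 and -0.35. Krt16 was also at -0.43 without male library 3, and Krt6a at -0.14 without female library 1. Krt16 over Krt6a in RPKM stayed between 0.893 and 1.14 over the 6 libraries, whereas Krt17 over Krt6a ranged from 0.564 to 1.14.

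For 1 gene of each role, the genes most like it over the 6 hind paw libraries were listed by Pearson's r of log2(normalized count + 1), among 10024 genes with a mean of at least 100 normalized counts. For Krt14 these were Grhl1 (r = 0.993), Hadh, Gm11992, Pard3 and 1700066M21Rik (r = 0.971). For Krt1 they were Hif1a (r = 0.997), Crybg3, Sp6, Mast4 and Kcnj15 (r = 0.992). For Krt9 they were Ets2 (r = 0.979), Chrdl1, Rbbp8, Zfp821 and Pak2 (r = 0.953). For Krt16 they were Rbl1 (r = 0.991), Sap30bp, AW549877, Zfyve19 and Nxt2 (r = 0.977). No other keratin was among the 5 genes listed for any of the 4. With 6 libraries and this many genes, values of r near 1 are a description only.

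Other keratins were set beside the 10. Among 11 other epithelial keratins tested, edgeR's quasi-likelihood test called 0 and DESeq2 called 1, with 4 at an unadjusted p under 0.05. The most abundant of them were Krt24, with a mean RPKM of 993 and a log2 fold change of -0.04, and Krt79 (107 and 0.04), and the lowest p-values were those of Krt23 (log2 fold change 0.46) and Krt78 (-0.52).

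The hair and root sheath keratins were also measured. Of 23 in the files, 21 were tested, and all 21 had a log2 fold change below 0, with a median of -2.14, and in 17 every male library was above every female library. None was called by edgeR's quasi-likelihood test, with 16 at an unadjusted p under 0.05, DESeq2 called 2, and edgeR called 14 when the level of skeletal muscle markers was a covariate. These counts are a description only, since a gene can pass the filter through the male libraries alone, where it is high. Krt36 did, with 2.85, 0 and 6.95 normalized counts in females and 14.2, 18.8 and 26.4 in males. The direction of such a gene follows from the filter, and how many there were was not counted. The summed share of all 23 needs no filter. It was 0.0171%, 0.000832% and 0.0148% of the reads on genes in female hind paw libraries 1, 2 and 3. In male libraries 1, 2 and 3 it was 0.0245%, 0.0545% and 0.0505%. Each of the 23 had reads in the hind paw. The most abundant, Krt71, an inner root sheath keratin, had 702, 0 and 540 normalized counts in females and 1022, 2441 and 2203 in males. Krt25 (log2 fold change -2.10) was next in level, and Krt84 (-1.65) and Krt36 (-2.60) had the lowest p-values. The 12 tested hair follicle genes other than keratins, among them Tchh (-2.29), S100a3 (-0.20), Gprc5d (-2.85) and Dsc2 (-0.59), were also all below 0, with 0 called by edgeR, 3 by DESeq2 and 6 at an unadjusted p under 0.05. Of these, Gprc5d passed the filter through the male libraries alone, so its direction followed from the filter. It had 6.65, 1.79 and 8.94 normalized counts in females and 33.8, 54.7 and 39.6 in males. The summed share of this list, which needs no filter, was 0.0219% to 0.0351% in females and 0.0431% to 0.0802% in males. The part of hair follicles in the difference of Krt1 or Krt17 was not tested.

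Genes that act with keratins in the epidermis were taken as lists. In the cornified envelope, the protein shell of the outermost cells, 1 of 34 tested genes was called by edgeR and 4 by DESeq2. That gene was Rptn, repetin, with 1911 ± 282 normalized counts in females and 5286 ± 889 in males (SD, n = 3) and a log2 fold change of -1.47 (standard error 0.15, adjusted p = 0.0151 by edgeR's quasi-likelihood test). Loricrin, Lor, the highest in RPKM, had a log2 fold change of 0.41, Hrnr -0.25 and Tgm5 -0.66, and the list's median was -0.02. Among 16 barrier lipid and protease genes, 1 was called by edgeR and 2 by DESeq2. It was Alox12e, an epidermal lipoxygenase, with a log2 fold change of 1.91 and an adjusted p of 0.00354 by edgeR's quasi-likelihood test, while Asprv1 (-0.11), Elovl4 (-0.11) and Klk10 (-0.49) were not called.

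Genes that anchor keratin filaments were taken next. Of 13 desmosome genes, which tie filaments to cell junctions, 0 were called by edgeR, 1 by DESeq2 and 1 at an unadjusted p under 0.05, and Perp (-0.09), Dsp (-0.15), Dsc1 (-0.42) and Dsg3 (0.15) were named by level or p. Of 12 hemidesmosome and attachment genes, 0 were called by either tool and 1 was at an unadjusted p under 0.05, with log2 fold changes of 0.18 for Col17a1, -0.07 for Plec and 0.16 for Lama3. When library sizes were scaled to the 25 genes of these lists, the signs of all 10 keratins were as in the fit over all genes, and 0 of the 10 were called by edgeR, with Krt1 still lower in females. Among 19 keratinocyte transcription factors, 0 were called by either tool and 2 were at an unadjusted p under 0.05, with Klf4 at -0.17, Zfp750 at -0.06, Ehf at -0.49 and Hoxd13 at -0.54. Of 12 stress and alarm genes, 0 were called by edgeR, 1 by DESeq2 and 4 were at an unadjusted p under 0.05. Ereg (-0.19), S100a8 (0.13), Il1b (1.42) and Lcn2 (0.72) were named there, and the list's median was 0.21, with 8 genes above 0 and 4 below. All 10 cell cycle genes were below 0, with Mki67 at -0.28, and 0 were called by either tool. The 3 at an unadjusted p under 0.05 were Top2a (-0.29), Ccna2 (-0.42) and Mcm2 (-0.32).

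**Figure D4:**
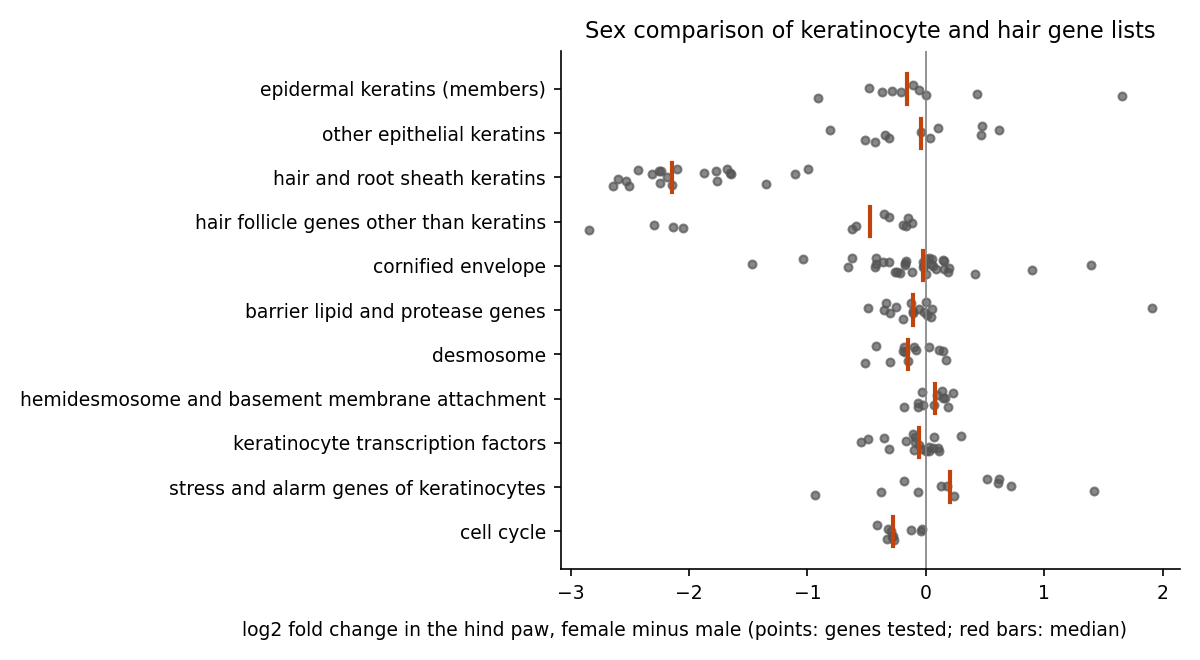
Log2 fold change in the hind paw, female minus male, of each tested gene in the keratin, keratinocyte and hair lists, with a point per gene and a red bar at the list's median. The hair and root sheath keratins, with a median of -2.14, lie left of the epidermal keratins, with a median of -0.16.

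Markers of other cells in the biopsy were measured in the same libraries. The 15 skeletal muscle markers, of which Ttn took the most reads, took 4.32%, 1.76% and 6.66% of the reads on genes in female hind paw libraries 1, 2 and 3 and 1.74%, 8.56% and 6.44% in male libraries 1, 2 and 3, although the methods describe biopsies that left muscle untouched. They varied widely within each sex, and the sexes overlapped. All 15 had a log2 fold change below 0, among them Acta1 (-0.55), Atp2a1 (-0.34), Myh2 (-1.20) and Mylpf (-0.63), with 0 called by edgeR or DESeq2 and 0 at an unadjusted p under 0.05. With their level as a covariate, 2 of the 10 keratins were called by edgeR, Krt1 (log2 fold change -0.97) and Krt17 (-0.45), and 364 genes in all (2.54%) in place of 22. In the other lists it called 14 of 21 hair and root sheath keratins, 5 of 12 other hair follicle genes, 6 of 34 cornified envelope genes, 2 of 11 other epithelial keratins, 4 of 7 immune and 3 of 10 fibroblast genes, and 0 or 1 in each of the rest.

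Fibroblast markers took 0.922%, 0.769% and 0.698% of the reads in female hind paw libraries 1, 2 and 3 and 1.63%, 1.01% and 1.25% in male libraries 1, 2 and 3, without overlap (exact permutation test, 2-sided p = 0.1). Dcn (log2 fold change -0.24) had the highest RPKM, Col3a1 (-0.89) took the most reads, and Col1a1 was at -1.21 and Col1a2 at -0.92, and of the 10 genes 0 were called by edgeR, 3 by DESeq2 and 3 were at an unadjusted p under 0.05, with 0 genes at 0 reads in the paw. Their part in the keratin differences was not tested.

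The remaining lists had 0 genes called by edgeR. Of 7 immune genes tested, 3 were called by DESeq2 and 5 were at an unadjusted p under 0.05, with Cd74 at 0.54, Lyz2 at -0.89 and Itgam at -0.58. Of 6 endothelial genes, DESeq2 called 1 and 2 were at an unadjusted p under 0.05, and the genes named by level or p were Cdh5 at -0.49, Pecam1 at -0.16 and Tek at -0.30. In the 10 adipocyte genes DESeq2 called 0 and 2 were at an unadjusted p under 0.05, Adrb3 (1.09) and Lpl (-0.34), while Fabp4 (0.04) and Cfd (-0.31) had the highest RPKM. The 3 melanocyte (Dct 0.08, Pmel 0.06 and Tyrp1 -0.32), 5 sensory neuron (P2rx3 0.06, Prph 0.07, Scn10a 0.55 and Avil 0.17) and 8 Schwann and satellite cell genes tested (Pmp22 -0.14 and Prx 0.23) had 0 called by DESeq2 and 0 at an unadjusted p under 0.05.

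In DRG the keratins were present as a trace. The 10 genes took 0.00321%, 0.00595% and 0.00336% of the reads on genes in female DRG libraries 1, 2 and 3 and 0.00326%, 0.00566% and 0.0104% in male DRG libraries 1, 2 and 3, from 331 to 1000 reads a library. Male DRG library 3 was the highest, and the sexes overlapped (exact permutation test, 2-sided p = 0.6). Krt77 had 0 reads in all 6, which allows a share of up to 2.25e-05% to 3.34e-05% per library, and Krt16 had 0 in 2 of them.

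The hind paw was tested against DRG for the 6 keratins that passed the filter on low counts in each tissue, namely Krt1, Krt2, Krt5, Krt9, Krt10 and Krt14. All 6 were called higher in the hind paw by edgeR (quasi-likelihood test, Benjamini-Hochberg adjustment), where 42.2% of the 13150 genes that passed in both tissues were called in that direction. Their log2 fold changes lay between 9.89 (Krt9) and 10.59 (Krt14), with adjusted p-values of 8.87e-13 to 6.43e-11. The other 4 passed through the hind paw alone, where they are high, so their values are given without a count. The log2 fold change was 10.57 for Krt16, 9.98 for Krt6a and 9.55 for Krt17, and Krt77 was at least 4.45-fold higher in the hind paw, against a floor of 3 reads per DRG library. Female hind paw library 3 held 38 of its reads, and without that library the bound was 2.79-fold.

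The trace was also set against the level in the hind paw, gene by gene. As a percent of the share in the hind paw, DRG held 0.0910% for Krt10 (95% exact Poisson interval 0.0863 to 0.0959, counting error only), 0.0896% for Krt1 (0.0825 to 0.0972), 0.0765% for Krt2 (0.0718 to 0.0814) and 0.108% for Krt9 (0.0915 to 0.126). The basal genes stood at 0.0801% (0.0651 to 0.0977) for Krt5 and 0.0709% (0.0564 to 0.0879) for Krt14. The stress genes, with only 7 to 14 reads each, stood at 0.0671% (0.0270 to 0.138) for Krt16, 0.0963% (0.0526 to 0.161) for Krt6a and 0.119% (0.0617 to 0.209) for Krt17. The 9 genes with reads in DRG thus lay between 0.0671% and 0.119% of their share in the hind paw, and Krt77 had 0 reads. Over both sexes pooled, the interval of Krt2 lay below those of Krt1, Krt10 and Krt9, and that of Krt14 below that of Krt9. The few reads of the stress genes left their intervals wide. The intervals were not computed within a sex. The RPKM ratio of Krt2 to Krt1 was lower in every female DRG library than in every female hind paw library. In every male DRG library it was inside the range of the male hind paw libraries. The place of Krt2 below Krt1 is therefore not shown for males.

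Krt10 made up 39.2% to 44.1% of the keratin reads in DRG, Krt2 27.2% to 31.0% and Krt1 16.4% to 19.3%. In each DRG library Krt10 took more of these reads than Krt2, and Krt2 more than Krt1. In female DRG libraries 1, 2 and 3 the RPKM of Krt2 was 1.40, 1.69 and 1.50 times that of Krt1, and in male DRG libraries 1.47, 1.44 and 1.77 times. The sexes overlapped in DRG. Each of the 3 female DRG libraries was below the 2.47 to 2.93 of the female hind paw libraries and inside the 1.19 to 1.77 of the male ones. The ratio over their summed reads was 1.57 (95% exact binomial interval 1.34 to 1.85, counting error only, from 408 and 243 reads). For Krt10 over Krt1 the female DRG libraries gave 2.72, 3.11 and 2.67, of which 2 were inside the 2.09 to 2.73 of the male hind paw libraries, 1 was above it, and all 3 were below the 3.24 to 3.72 of the female ones. Over their summed reads this ratio was 2.90 (2.50 to 3.38, counting error only), an interval that reaches into both ranges. These comparisons were made after the values were seen and were not tested, and the labels do not say how tissues or libraries were handled together.

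**Figure D5:**
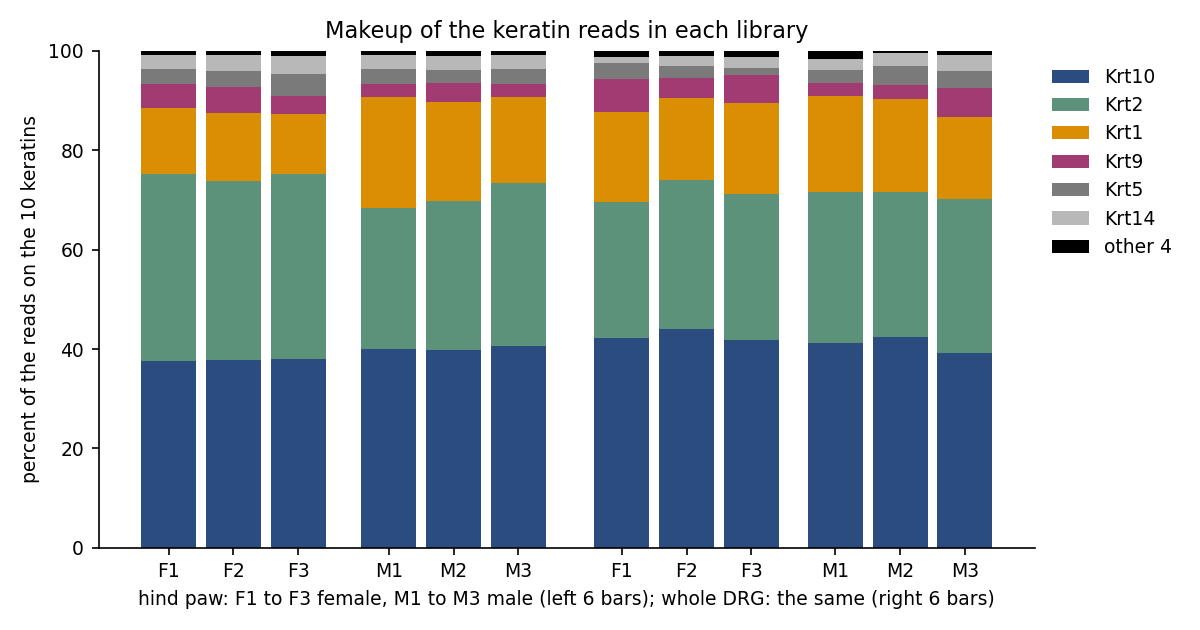
Percent of the reads on the 10 keratins that fell on each gene, with a stacked bar per library, for hind paw (left 6 bars) and DRG (right 6 bars). Krt1 takes 11.9% to 13.6% in the female hind paw and 16.4% or more in the male hind paw and in both sexes of DRG.

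Cornified envelope genes were also low in DRG, at 0.00256% of the reads on genes on average against 1.58% in the hind paw. The order of the 6 DRG libraries by these genes, from male DRG library 3 (0.00377%) through female library 2 (0.00289%) and male library 2 (0.00257%) to female library 1 (0.00196%), was the same as by the 10 keratins. The one with the most reads in DRG was Ppl, and 7 of the 37 in the files had 0 reads there.

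Between the sexes in DRG, the same 6 of the 10 keratins passed the filter on low counts. Of these, 0 were called by edgeR's quasi-likelihood test, where 0.0484% of 14456 genes were called, 0 were called by DESeq2, and 0 had an unadjusted p under 0.05, against 6.01% of all genes. The male libraries were above all female libraries in 0 of 6, against 6.4% of all genes. All 6 log2 fold changes were below 0, and male DRG library 3, the highest in each of the 6, belongs to the higher group. Their median of -0.66 was -0.18 without that library, where Krt9 was at 0.80 and 1 of the 6 and 5.6% of all genes had an unadjusted p under 0.05. It was -0.98 without male DRG library 1, where 5 of the 6 and 3.15% of all genes had an unadjusted p under 0.05, and -1.0 without female DRG library 2, where 2 of the 6 and 4.67% of all genes had. That of Krt1 was -0.64 (standard error 0.34, adjusted p = 0.743 by edgeR's quasi-likelihood test), and -0.23 without male DRG library 3 and -0.94 without male DRG library 1.

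Whether the sex difference itself differed between the tissues was tested over the 12 libraries. This fit, like that of the hind paw against DRG, treated the 12 libraries as independent. If hind paw and DRG came from the same mice, that pairing was not modeled. By edgeR's quasi-likelihood test 0 of the 6 keratins that passed the filter in each tissue were called, where 0.0152% of the genes that passed in both were called. DESeq2 called 0 of the 6, and 0 were at an unadjusted p under 0.05 by edgeR, against 8.02% of those genes. There were 4 of the 6 at an unadjusted p under 0.05 without male DRG library 1 (6.01% of those genes), 3 without female DRG library 2 (7.29%) and 0 without male DRG library 3 (7.13%), and 0 called in each. The other 4, with 0 to 14 reads each over the 6 DRG libraries, did not pass the filter there and are not counted. For Krt1 the difference of the log2 fold changes, hind paw minus DRG, was -0.26 (standard error 0.43, adjusted p = 0.942 by edgeR's quasi-likelihood test). Leaving out single libraries moved it between -0.67 (without male DRG library 3) and 0.044 (without male DRG library 1), and it was also above 0, at 0.038, without female DRG library 2.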

How the data were processed

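RNA of hind paw and whole DRG from C57BL/6J mice was sequenced in 12 libraries, 3 of each sex and tissue. The labels name a stranded kit that depletes ribosomal RNA, 500 ng of RNA and paired reads of 100 bases, whereas the methods name oligo-dT primers and shorter single reads. Per the labels, the authors used bcl2fastq, TopHat2, HTSeq and DESeq with the mm9 genome. What was deposited is the count of reads on each gene, not normalized. The 5 categories of uncounted reads, 71.9% to 86.4% of the listed reads, were left out of tests. No pair of libraries within a group agreed within sampling noise (chi-square per degree of freedom of 2.35 or more).

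Counts were tested with edgeR 4.0.16 (quasi-likelihood F-test, RLE factors) under R 4.3.3, for genes that reached 10 counts in 3 or more libraries, with Benjamini-Hochberg adjustment over all tested genes and an adjusted p of 0.05 as the threshold. DESeq2 1.42.0 was an alternative, as were TMM factors, no filter, a replicate block, a fit of all 12 libraries, a covariate of muscle markers, scaling to junction genes and leaving out each library. Shares and ratios were compared by exact permutation tests in scipy 1.17.1. The procedure was tested on simulated data. Lengths were exon unions from GENCODE for mm9, matched to 21671 of 22609 symbols. Named genes were the 10 members and, in each of 18 lists, the 2 with the highest RPKM and the 2 with the lowest p. The members and lists were chosen with earlier results of these data known. Neither source names a batch.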

Additional observations from a re-analysis of the deposited data

How the results depend on the processing

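In the hind paw, edgeR called 22 genes and 0 of the 10 keratins between the sexes. The counts were 208 genes and 1 keratin (Krt1) with DESeq2, 364 genes and 2 keratins (Krt1 and Krt17) with muscle markers as a covariate, 40 genes without the filter on low counts, 88 in the fit of all 12 libraries and 1 to 8 on leaving out single libraries, with 1 gene left without male library 2, and 0 keratins in each of these last 3 settings. The fits without a library have fewer samples, and the cause of these differences was not tested. In DRG, where 7 genes were called, DESeq2 called 15 and leaving out a library gave 1 to 6. For the interaction of sex and tissue, where 2 genes were called, DESeq2 called 36, no filter gave 4 and leaving out a library gave 0 to 4. No keratin was called in these settings of either comparison, and the 6 that passed the filter in each tissue were called higher in the hind paw than in DRG in every setting run. With the replicate number as a block, 8 genes were called in the hind paw and 0 for the interaction, and no call of a keratin changed. At an unadjusted p under 0.05 in the hind paw, edgeR then had 6 keratins in place of 4, and 1318 genes in place of 1395. Same-numbered female and male hind paw libraries did not consistently deviate together from their group means (correlations of -0.08, -0.38 and 0.31 for numbers 1, 2 and 3). Pairs with different numbers ran from -0.51 to 0.51, so no pairing was read from the numbers. Between hind paw and DRG libraries of the same number, the correlations were 0.06, -0.05 and 0.20 in females. In males they were -0.29, 0.04 and -0.15. Different numbers gave -0.21 to 0.16 in females and -0.25 to 0.32 in males. In the hind paw the direction turned for 4 values when libraries were left out. The log2 fold change of Krt2 ran from -0.075 to 0.084 and that of Krt5 from -0.11 to 0.035, and the female minus male difference of the log2 ratio ran from -0.088 to 0.0018 for Krt14 to Krt5 and from -0.16 to 0.022 for Krt16 to Krt6a. The log2 ratio of Krt17 to Krt6a ran from -0.51 to -0.0042, near 0 without female library 2. The direction of the other 8 fold changes and 5 ratios held in each setting run, as did that of the share of reads on the 10 keratins. That share's difference of -0.82 percentage points was -0.012 as a percent of all listed reads. The small size of the latter depends on male library 2, at 0.876%, against 1.78% and 1.59% in male libraries 1 and 3. The order of the keratins by RPKM held with the longest transcript as gene length. Depth limits Krt77, with 3.52 normalized counts in its lowest hind paw library, and the stress keratins in DRG.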
